A study of Mus musculus with 96 samples.

Results

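The 9 genes described here encode the receptors with which blood stem cells leave one site, travel and lodge in another: Cxcr4, the integrin alpha subunits Itga4, Itga5, Itga6 and Itgal, the integrin beta subunits Itgb1 and Itgb2, the hyaluronan receptor Cd44, and Fermt3, which codes for the integrin activator kindlin-3. They were taken by symbol from the count table, in which all 9 were present among 19836 genes. They were followed in single cells from C57BL/6 mouse embryos at 4 points on the route of definitive blood stem cells from the aorta and yolk sac to the fetal liver.

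Of the 96 cells, 48 came from the aorta-gonad-mesonephros region (AGM) and 16 from the yolk sac, both at embryonic stage E11.5. Both were gated as Ter119-CD11b-CD144+c-kit+EPCR+, and CD144 is the product of the endothelial cadherin gene Cdh5, while EPCR is that of Procr. The liver gave 16 cells at E12.5, gated as Ter119-Sca-1+c-kit+EPCR+, and 16 at E14.5, gated as Ter119-Sca-1+c-kit+CD48-CD150+. Each well of a 96-well plate received 1 cell, and full-length cDNA was made with a SMART-Seq kit. Site, age and gate therefore differ together between the E11.5 cells and the liver cells, and they cannot be told apart. No animal or litter is named for any cell, and each group therefore counts as 1 sample: no test was possible, and no p-value is given. Intervals of read levels cover counting error alone, and intervals of shares describe the number of cells drawn from that 1 sample, not differences between animals.

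Integrins are pairs of an alpha and a beta chain, and the pair decides the ligand. The products of Itga4 and Itgb1 form VLA-4, which binds VCAM-1 and fibronectin, those of Itga5 and Itgb1 form VLA-5, a fibronectin receptor, and those of Itga6 and Itgb1 form VLA-6, a laminin receptor. The products of Itgal and Itgb2 form LFA-1, which binds the ICAM proteins and is restricted to blood cells. An integrin binds firmly after talin and a kindlin attach to the tail of its beta chain, and signals from CXCR4, the receptor for the chemokine CXCL12, can set off that step. Beta-1 integrins are known to be needed for blood stem cells to colonise the fetal liver.

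Between AGM and E12.5 liver the members that differed most were Itga5, Itga6, Itga4 and Fermt3. Itga5 was 6.19-fold lower in the liver cells (counting interval 5.23 to 7.37) and Itga6 was 3.05-fold lower (2.63 to 3.56), while Itga4 was 2.35-fold higher (2.20 to 2.51) and Fermt3 was 2.54-fold higher (2.46 to 2.63). These ratios compare CPM, the reads of a gene scaled to a common library total, after the reads of all cells of a group were summed, while the log2 ratios used for calls and given below were taken after 1 CPM was added. Of the 4, Itga4 and Fermt3 were higher and Itga5 and Itga6 lower by more than 2-fold, the size used here to call a difference. Among 15239 genes with at least 30 reads, 15.6% were more than 2-fold higher and 26% more than 2-fold lower. In either direction 41.7% passed, so with 1 CPM added 4 of 9 members is near the background. With 10 CPM added the members were again 2 higher and 2 lower, beside 7.13% and 7.41% of all genes. How the members compare with the background thus depended on the CPM added. Single cells weighed on these values: without cell 14 of the E12.5 liver the log2 ratio of Itga4 was 0.78 in place of 1.21, under 2-fold, and without cell 2 that of Itga6 was -3.87 in place of -1.52.

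RefSeq's promoter table (build GRCm38.p6) held 6 of the 9 members, and Itga6, Itgal and Itgb2 had no entry. Of the members called between AGM and E12.5 liver, Itga4, Fermt3 and Itga5 had an entry. Their 250 bases before the start are printed 5′ to 3′ on the gene's strand. They are shown beside the genes that differed most in this step, and capitals mark matches on either strand to the RUNX letters TGNGGT or to the ETS letters GAGGAA of the PU.1 type.
Itga4 (chr2:79255176-79255425, plus strand): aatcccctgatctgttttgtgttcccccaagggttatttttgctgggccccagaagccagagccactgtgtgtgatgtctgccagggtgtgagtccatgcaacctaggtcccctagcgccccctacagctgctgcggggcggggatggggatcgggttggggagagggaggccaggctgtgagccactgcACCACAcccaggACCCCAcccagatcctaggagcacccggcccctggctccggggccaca
Fermt3 (chr19:7019470-7019719, minus strand): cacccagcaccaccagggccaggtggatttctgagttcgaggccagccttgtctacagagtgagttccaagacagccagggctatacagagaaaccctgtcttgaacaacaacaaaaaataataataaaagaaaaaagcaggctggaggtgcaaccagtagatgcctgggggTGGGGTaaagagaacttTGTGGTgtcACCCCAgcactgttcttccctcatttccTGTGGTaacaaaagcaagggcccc
Itga5 (chr15:103366792-103367041, minus strand): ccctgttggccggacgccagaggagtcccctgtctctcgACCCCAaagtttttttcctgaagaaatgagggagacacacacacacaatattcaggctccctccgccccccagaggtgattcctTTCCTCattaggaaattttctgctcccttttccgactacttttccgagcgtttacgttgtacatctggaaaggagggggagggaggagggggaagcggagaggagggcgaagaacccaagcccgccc
The Itga4 window held 2 RUNX matches, 60 and 48 bases before the start, and no ETS match. The Fermt3 window held 4 RUNX matches, which began 78, 61, 52 and 24 bases before the start. The Itga5 window held 1 ETS match 127 bases before the start and 1 RUNX match farther upstream. In 32851 promoter windows of this length, 40.1% held the RUNX letters and 23.3% the ETS letters, so a match is common and describes the letters alone. None of the 3 windows held the GATA letters GATAAG, present in 6.55% of windows. Cd44 and Cxcr4, called in other comparisons only, also had an entry and are not printed. The Cd44 window held 2 ETS matches and 1 GATA match, and the Cxcr4 window 0 matches.

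The libraries were deep, with 250235 to 1926882 reads per cell and pooled totals of 60280645 reads in AGM, 22306075 in yolk sac, 19053123 in the E12.5 and 20585452 in the E14.5 liver. Several cells stood apart from their labels. In the yolk sac group, 8 of 16 cells had no read of either Cdh5 or Procr although the gate selected for both proteins, whereas 0 of 48 AGM cells lacked both. An unread gate gene was also common in the liver: Procr was read in 8 of 16 cells at E12.5, where the gate asked for EPCR, and Slamf1, the gene of CD150, in 4 of 16 cells at E14.5. Cell 8 of the E12.5 liver had 1011 genes and 250235 reads, and 0 reads of every endothelial and haematopoietic marker. Its summed macrophage marker level was 16972 CPM, against a group median of 1043 CPM. Its summed erythroid marker level was 10694 CPM, against a group median of 586.7 CPM, and globin genes held 1.01% of its reads. Cells 3, 8, 13 and 16 of the E14.5 liver had 14.55%, 12.91%, 4.41% and 21.95% of their reads on globin genes, and Cd48 was read in 6 of the 16 E14.5 cells although the gate excluded its protein. Summed over 10 endothelial markers, the pooled level was 1277 CPM in AGM, 577.9 in yolk sac, 761.9 in the E12.5 and 496.2 in the E14.5 liver, with Kdr at 0 reads at E12.5 and Cldn5 and Sox17 at 0 reads at E14.5. Results that rest on the cells that stand apart are given with and without them.

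Itgb1, the shared beta chain of VLA-4, VLA-5 and VLA-6 (chr8:128685654-128733200 in GENCODE M21 on GRCm38), was the most widely read member in AGM. A read was found in 47 of 48 AGM cells (97.9%, exact interval 88.9 to 99.9) and in 12 of 16 cells of each other group (75%, 47.6 to 92.7). The lowest cell was at 0 in all groups, as it was for every member. The median cell had 204.8 CPM in AGM, 31.6 in yolk sac, 109.1 in the E12.5 and 21.7 in the E14.5 liver, and the highest had 851.5, 426.8, 300.2 and 360.5 CPM. The groups overlapped, but 14 of the 48 AGM cells lay above the highest E12.5 cell, and 47 of the 48 lay above 10 CPM. Pooled, Itgb1 stood at 230.8 CPM in AGM (interval 226.97 to 234.7), 136.6 in yolk sac, 139.1 in the E12.5 and 79.9 in the E14.5 liver. E12.5 liver and yolk sac differed by a log2 ratio of 0.03, within counting error (ratio 1.018, interval 0.966 to 1.07). That nearness depended on the yolk sac cells counted: the 8 with a Cdh5 or Procr read stood at 209.3 CPM and the other 8 at 41.9 CPM, and against the first 8 the E12.5 ratio was -0.59. E14.5 liver stood below E12.5 liver at a log2 ratio of -0.79, or -1.26 without cell 7 of the E14.5 liver, which held 33.4% of that group's reads.

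Itga5 (chr15:103344286-103366763), the fibronectin-receptor alpha chain, had the largest difference between AGM and E12.5 liver among the members. It was read in 33 of 48 AGM cells (68.75%, 53.7 to 81.3), 8 of 16 from yolk sac (50%, 24.7 to 75.3), 3 of 16 from E12.5 liver (18.75%, 4.05 to 45.6) and 1 of 16 from E14.5 liver (6.25%, 0.158 to 30.2). The median cell had 22.3 CPM in AGM, 0.704 in yolk sac and 0 in both liver groups, and the highest had 210.5, 93.5, 44.3 and 165.6 CPM. The share was thus lower in both liver groups than in AGM in these cells. After each cell was thinned to 690000 reads the shares were 65.1%, 50%, 21.4% and 7.14%, so the order was as without thinning.

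Pooled, Itga5 stood at 46.4 CPM in AGM, 30.04 in yolk sac, 7.51 in the E12.5 and 9.08 in the E14.5 liver. The log2 ratio of E12.5 over AGM was -2.48, and it was -3.08 without cell 2 and -3.15 without cell 14 of the E12.5 liver. Against yolk sac it was -1.87, -2.47 and -2.54 without the same cells, and -2.35 against the 8 yolk sac cells with a Cdh5 or Procr read. The E14.5 value came entirely from cell 8, one of the globin-rich cells, at 165.6 CPM. Without the 4 globin-rich cells Itga5 had 0 reads in the other 12 E14.5 cells, and the E14.5 over E12.5 log2 ratio turned from 0.25 to -3.09.

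Itga6 (chr2:71745616-71858416), the laminin-receptor alpha chain, was read in 25 of 48 AGM cells (52.1%), 8 of 16 from yolk sac (50%), 4 of 16 from E12.5 liver and 4 of 16 from E14.5 liver (25% each, 7.27 to 52.4). Its median was 2.71 CPM in AGM, 1.18 in yolk sac and 0 in both liver groups. The highest cells had 169.2, 426.5, 91.0 and 150.005 CPM. Pooled levels were 30.7 CPM in AGM, 35.9 in yolk sac, 10.1 in the E12.5 and 20.9 in the E14.5 liver. In the E12.5 liver, cell 2 held 89.6% of the Itga6 reads. Without it the log2 ratio to AGM went from -1.52 to -3.87, that to yolk sac from -1.74 to -4.09, and that of E14.5 over E12.5 from 0.99 to 3.34. In the yolk sac, cell 12 held 45.1% of the reads, and the ratio of E12.5 over yolk sac was -0.96 without it, just under 2-fold. Cell 9 of the E14.5 liver held 55.9% of that group's reads, and without it both liver ages stood at a log2 ratio of -0.01. The ratio of 0.99 lay at the edge of 2-fold and was 1.17 without the globin-rich cells and between 1.03 and 1.12 without any 1 of 12 single E14.5 cells.

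Itga4 (chr2:79255426-79333123), the VLA-4 alpha chain, was the one of these 4 alpha chains that the E12.5 liver cells had at a higher level than both E11.5 groups by more than 2-fold. Its shares were alike: 33 of 48 AGM cells (68.75%), 11 of 16 from yolk sac (68.75%), 13 of 16 from E12.5 liver (81.25%, 54.4 to 96.0) and 12 of 16 from E14.5 liver (75%). The median cell had 23.2, 9.99, 47.003 and 33.1 CPM, and the highest had 310.4, 120.5, 479.5 and 187.98 CPM. The single-cell values of all 4 groups overlapped. Pooled, Itga4 stood at 34.5 CPM in AGM (33.04 to 36.02), 24.2 in yolk sac (22.2 to 26.3), 81.1 in the E12.5 (77.1 to 85.3) and 45.2 in the E14.5 liver (42.3 to 48.2).

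The log2 ratio of E12.5 over AGM was 1.21 and that over yolk sac 1.70. Cell 14 of the E12.5 liver held 32.02% of that group's Itga4 reads, and the ratio to AGM was 0.78 without it, which ended the call. The ratio to yolk sac was 1.27 without the same cell. Cell 8, the highest of its group in macrophage and erythroid markers, also had the highest Itga4 value, 479.5 CPM. Without this cell E12.5 stood at 75.8 CPM and at a log2 ratio of 1.11 over AGM. From E12.5 to E14.5 the log2 ratio was -0.83, or -1.04 without cell 16 of the E14.5 liver. Itga4 shares 1124 exon bases with Cerkl on the opposite strand, whose reads came to 2.81% of those of Itga4, and whether the counting used strand is not given in the sources used here.

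**Figure D1:**
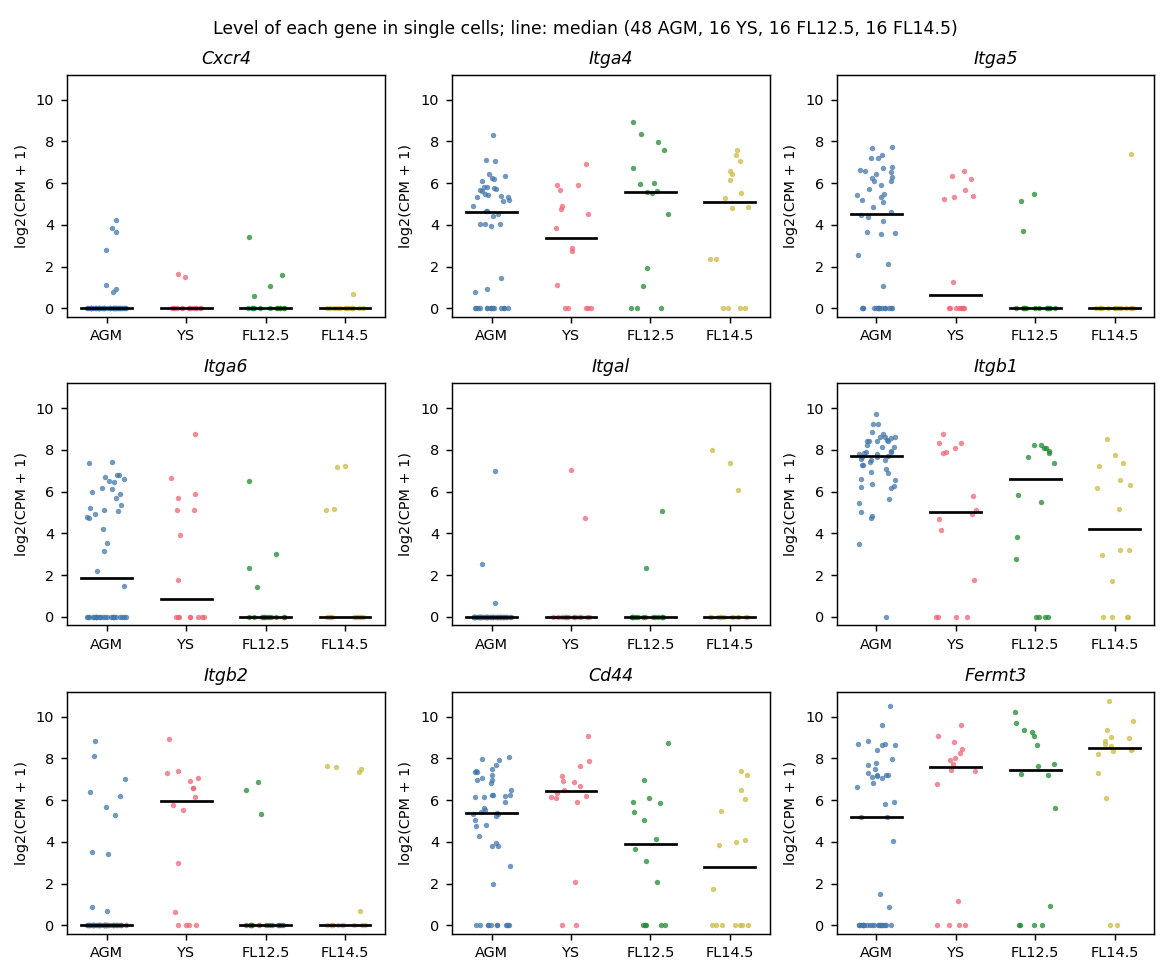
Level of each of the 9 genes in every cell, as log2 of CPM plus 1 on the y axis, for 48 AGM, 16 yolk sac (YS), 16 E12.5 liver (FL12.5) and 16 E14.5 liver (FL14.5) cells. Points are cells and the line is the group median. Itga5 lies above 0 for 33 AGM points, 8 yolk sac points, and 3 and 1 points of the younger and older liver, while Itgb2 lies above 0 for 12 of 16 yolk sac points and 11 of 48 AGM points.

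Itgb2 (chr10:77530252-77565708), the beta chain of LFA-1 and the other leukocyte integrins, was read in most yolk sac cells and in few cells elsewhere. It was read in 12 of 16 from yolk sac (75%, 47.6 to 92.7), against 11 of 48 AGM cells (22.9%, 12.0 to 37.3), 3 of 16 from E12.5 liver (18.75%, 4.05 to 45.6) and 5 of 16 from E14.5 liver (31.25%, 11.02 to 58.7). Thinned shares were 68.75% in yolk sac, 20.9% in AGM, 21.4% at E12.5 and 28.6% in the older liver. The median cell had 61.5 CPM in yolk sac and 0 in the other 3 groups, and the highest had 491.5 CPM in yolk sac, 452.4 in AGM, 115.0 at E12.5 and 200.8 in the older liver.

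Pooled Itgb2 was 80.2 CPM in yolk sac, 25.5 in AGM, 16.5 at E12.5 and 52.9 at E14.5. Yolk sac was 3.15-fold above AGM (2.94 to 3.37) and 4.85-fold above E12.5 liver (4.30 to 5.49). It was not confined to the yolk sac cells without Cdh5 and Procr: 7 of the 8 cells with such a read had Itgb2, at 61.5 CPM, and 5 of the other 8, at 104.7 CPM. Cell 23 of the AGM held 49.1% of the AGM reads, and the log2 ratio of yolk sac over AGM was 1.62 with it and 2.50 without it. E14.5 liver was above E12.5 liver by a log2 ratio of 1.62, or 1.96 without the globin-rich cells, none of which had an Itgb2 read. Without cell 11 of the E12.5 liver the ratios of E12.5 over AGM and over yolk sac were -1.35 and -2.97, and that of E14.5 over E12.5 was 2.37. Over AGM the E12.5 ratio was -0.60 with all cells, -1.13 without cell 1 of the E12.5 liver and 0.29 without cell 23 of the AGM, so its direction rested on single cells. Macrophages carry this chain, and the summed level of 9 macrophage markers was 421.8 CPM in yolk sac, against 771.4 in AGM, 1064 at E12.5 and 728.3 at E14.5. Most of each sum was Lyz2, at 348.5 CPM in yolk sac, 673.5 in AGM, 740.5 at E12.5 and 547.4 at E14.5. In yolk sac Lyz2 was read in 14, Fcgr3 in 7, Csf1r in 5, Cd68 in 5 and Mrc1 in 1 of 16 cells. C1qa and C1qb had 0 reads there, while Adgre1 and Cx3cr1 had reads there and 0 reads in AGM and at E12.5. The gate of the yolk sac cells excluded CD11b. The part of macrophages in the Itgb2 levels was not tested.

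Itgal (chr7:127296260-127335138), the LFA-1 alpha chain, was read in 10 of the 96 cells: 3 in AGM, 2 in yolk sac, 2 in the E12.5 and 3 in the E14.5 liver. The AGM cells had 125.8, 4.74 and 0.585 CPM, and the yolk sac cells 130.8 and 25.3 CPM. The E12.5 cells had 32.6 and 3.999 CPM, and the E14.5 cells 257.1, 165.2 and 66.3 CPM. All 3 E14.5 values were above both E12.5 values, and pooled Itgal was 35.02 CPM at E14.5 against 3.15 at E12.5, an 11.1-fold difference (8.54 to 14.7). The log2 ratio of 3.12 was 2.03 without cell 12 of the E14.5 liver and 4.87 without cell 11 of the E12.5 liver. Pooled levels in AGM and yolk sac were 1.82 and 8.74 CPM. Both comparisons with yolk sac turned on cell 9, which held 83.6% of its reads: without it the ratio of E12.5 over yolk sac went from -1.23 to 0.72 and that of yolk sac over AGM from 1.79 to -0.17. Over AGM, E12.5 liver stood at 0.55, at 1.91 without cell 34 of the AGM and at -1.20 without cell 11 of the E12.5 liver.

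Cxcr4 (chr1:128588199-128592293) was at the edge of detection. It was read in 7 of 48 AGM cells (14.6%, 6.07 to 27.8), 2 of 16 from yolk sac (exact interval 1.55 to 38.3%), 4 of 16 from E12.5 liver (25%, 7.27 to 52.4) and 1 of 16 from E14.5 liver (6.25%, 0.158 to 30.2). The highest cell of each group had 17.5, 2.12, 9.54 and 0.605 CPM, and the median was 0 in all 4. In reads, the groups held 62, 7, 21 and 1. AGM and E12.5 liver did not differ beyond counting error, at 1.03 CPM (0.789 to 1.32) and 1.10 CPM (0.682 to 1.68). From E12.5 to E14.5 the 21 reads against 1 gave a 22.7-fold difference with a counting interval of 3.65 to 938. Cell 13 held 81.0% of the E12.5 reads, and without it the log2 ratio of E14.5 over E12.5 was -0.23 in place of -1.003. That call lay at the edge and was also lost, by less, without E12.5 cell 1 (-0.97) or without any of 11 single E14.5 cells. Cxcr4 was thus unread in most cells at this depth, and the part of depth was not tested.

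Cd44 (chr2:102811141-102901665), which binds hyaluronan in the matrix, was read in 37 of 48 AGM cells (77.1%, 62.7 to 87.97), 14 of 16 from yolk sac (87.5%, 61.7 to 98.4), 11 of 16 from E12.5 liver (68.75%, 41.3 to 89.0) and 9 of 16 from E14.5 liver (56.25%, 29.9 to 80.2). The median cell had 41.4 CPM in AGM, 84.8 in yolk sac, 14.1 in the E12.5 and 7.998 in the E14.5 liver, with highest cells at 269.8, 530.4, 424.7 and 168.7 CPM. Single cells of all groups overlapped, and both liver medians lay under both E11.5 medians. Pooled levels were 67.2, 116.6, 55.2 and 37.3 CPM. Yolk sac stood 2.11-fold above E12.5 liver (1.97 to 2.27), just past the size that was called. That call was lost without cell 11 or 13 of the yolk sac, at -0.96 and -0.72, without any 1 of cells 3, 4, 5, 6, 11, 15 and 16 of the E12.5 liver, at -0.93 or nearer to the 2-fold line, and with the 8 yolk sac cells that had a Cdh5 or Procr read, at -0.73. One E12.5 cell, cell 7, held 49.3% of that group's Cd44 reads. Without it the log2 ratio over yolk sac was -1.93 in place of -1.06, that over AGM -1.14 in place of -0.28, and that of E14.5 over E12.5 0.31 in place of -0.55. The last of these was -1.18 without cell 4 of the E14.5 liver.

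Fermt3 (chr19:6998958-7019469), the blood-cell kindlin, had a higher pooled level in each liver group than in either E11.5 group. A read was found in 28 of 48 AGM cells (58.3%, 43.2 to 72.4), 12 of 16 from yolk sac (75%), 12 of 16 from E12.5 liver (75%) and 14 of 16 from E14.5 liver (87.5%, 61.7 to 98.4). The median cell had 35.6 CPM in AGM, 194.1 in yolk sac, 172.996 in the E12.5 and 366.3 in the E14.5 liver, and the highest had 1481.6, 774.9, 1189.1 and 1738.9 CPM. The ranges overlapped, and 20 of the 48 AGM cells were at 0. Pooled, Fermt3 stood at 136.8, 241.1, 347.8 and 470.7 CPM in that order. The log2 ratio of E12.5 over AGM was 1.34, with a range of 1.08 to 1.56 over all cells left out singly, so it was called in each case. Over yolk sac it was 0.53, and from E12.5 to E14.5 it was 0.44, neither past 2-fold. The globin-rich E14.5 cells had 827.4 CPM, and without them E14.5 stood at 375.0 CPM and at a ratio of 0.11 to E12.5. The sum of 10 erythroid markers was 72.4 CPM in AGM, 84.6 in yolk sac, then 927.5 at E12.5 and 28929 at E14.5. Of the 10, 8 were more than 2-fold higher in E12.5 liver than in AGM, beside 15.6% of all genes. The part of erythroid content in the Fermt3 ratios was not tested. Fermt3 shares 89 exon bases with Trpt1 on the opposite strand, whose reads came to 0.765% of its own.

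**Figure D2:**
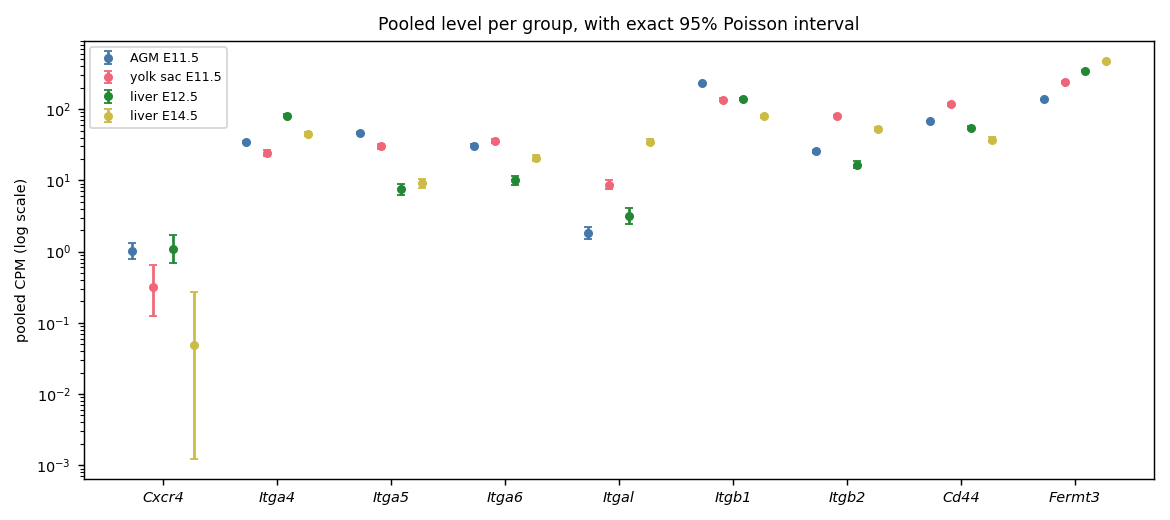
Pooled CPM of the 9 genes in the 4 groups on a log scale, with exact 95% Poisson intervals that cover counting error alone. Fermt3 stands highest in the liver groups at 347.8 and 470.7 CPM, Itga5 is lower there, at 7.51 and 9.08 CPM, than in AGM at 46.4 CPM, and the Cxcr4 intervals are wide because its groups hold 62, 7, 21 and 1 reads.

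**Figure D3:**
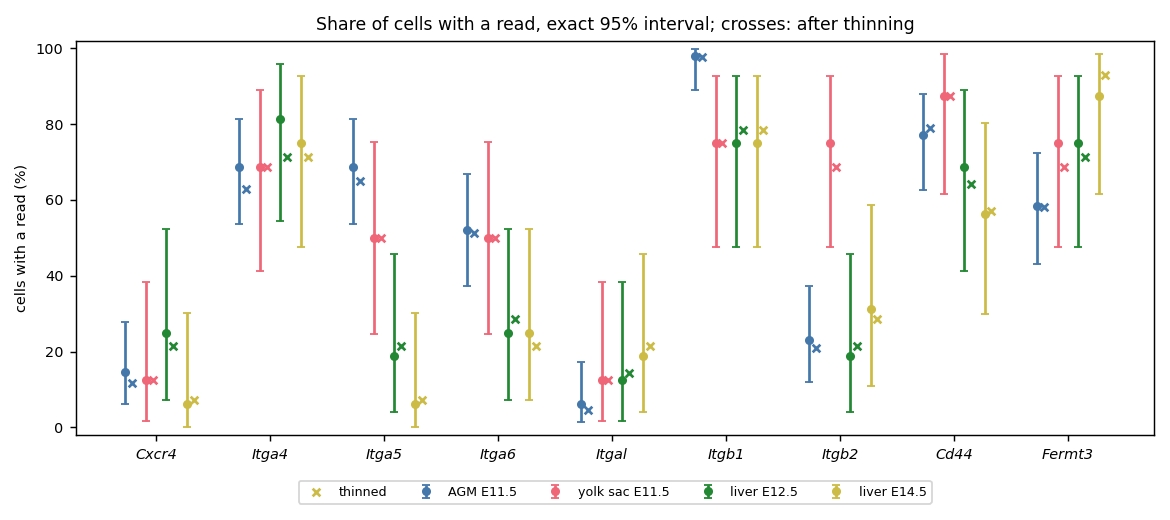
Percent of cells with at least 1 read of each gene, with exact Clopper-Pearson 95% intervals, and as crosses the percent after each cell was thinned to 690000 reads. The Itga5 share is 68.75% in AGM and 18.75% at E12.5, and the Itgb2 share is 75% in yolk sac and 22.9% in AGM.

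Counting over the 9 genes, the median cell had reads of 4.5 members in AGM (2 to 8), 5 in yolk sac (1 to 8), 4 in the E12.5 (1 to 9) and 4 in the E14.5 liver (2 to 6). No cell lacked all of them. Levels of different genes were compared per length, as CPM per kilobase of exon (RPKM). On that scale Itgb1 led in AGM at 56.6 RPKM, followed by Fermt3 at 23.7, Cd44 at 9.92, Itga5 at 9.41 and Itgb2 at 8.35. Fermt3 led in the other 3 groups, at 41.7 RPKM in yolk sac, 60.1 in the E12.5 and 81.4 in the E14.5 liver, with Itgb1 next at 33.5, 34.1 and 19.6 RPKM. Among the beta-1 partners the order turned over: Itga5, Itga6 and Itga4 stood at 9.41, 3.404 and 2.47 RPKM in AGM and at 1.52, 1.12 and 5.80 RPKM at E12.5. At E14.5 Itga4, Itga6 and Itga5 stood at 3.23, 2.32 and 1.84 RPKM, with Itgal above them at 5.33. That order rested on few cells: Itgal was read in 3 of 16 and Itga5 in 1 of 16, against 12 of 16 for Itga4. The order also depended on length, taken as all annotated exon bases, 13978 for Itga4. In CPM, Itga4 stood above Itga6 in AGM, at 34.5 and 30.7. Cxcr4 and Itgal were the lowest members in AGM, yolk sac and E12.5 liver, and at E14.5 Cxcr4 was lowest at 0.0269 RPKM.

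Because an integrin needs both chains, reads of the partner genes were counted in the same cell. Itgb1 alone was read in 47 of 48 AGM cells and in 12 of 16 cells of each other group, so in AGM a pair was nearly given. Itga5 met Itgb1 in each cell that had it outside the E14.5 liver, 44 of 44, of which 33 were AGM cells. The 1 E14.5 cell with Itga5 had no Itgb1 read. The VLA-5 pair was therefore read in 33 of 48 AGM cells, 8 of 16 from yolk sac, 3 of 16 from E12.5 liver and 0 of 16 from E14.5 liver, where the exact interval reaches 20.6%. The VLA-4 pair, Itga4 with Itgb1, was read in 33 of 48 AGM cells (68.75%, 53.7 to 81.3), 8 of 16 from yolk sac (50%), 9 of 16 from E12.5 liver (56.25%) and 10 of 16 from E14.5 liver (62.5%, 35.4 to 84.8). The VLA-6 pair was read in 25, 5, 4 and 3 cells. Itga4 without Itga5 was found in 11 of 48 AGM cells, 5 of 16 from yolk sac, 10 of 16 from E12.5 liver and 12 of 16 from E14.5 liver, and both together in 22, 6, 3 and 0. Counting reads of any number, the share of cells with the VLA-4 pair lay between 50% and 68.75% in the 4 groups and that with the VLA-5 pair between 68.75% and 0%. With 10 CPM asked of both genes, the VLA-4 pair was found in 62.5% of AGM cells, 37.5% of the yolk sac group, 50% of the E12.5 and 37.5% of the E14.5 group.

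The LFA-1 pair, Itgal with Itgb2, was rare. All 7 yolk sac and liver cells with Itgal had Itgb2 too, namely 2 in yolk sac, 2 in the E12.5 and 3 in the E14.5 liver, although in cell 12 of the E14.5 liver it was 1 Itgb2 read beside 257.1 CPM of Itgal. In AGM 0 of the 3 Itgal cells had an Itgb2 read, and 0 of 48 cells held the pair (exact interval up to 7.40%). Cells with at least 1 of the 4 pairs numbered 46 of 48 in AGM (95.8%, 85.7 to 99.5), 12 of 16 in yolk sac, 10 of 16 at E12.5 (62.5%, 35.4 to 84.8) and 13 of 16 at E14.5. Adding a Fermt3 read brought these to 26, 10, 9 and 12 cells. An unread gene in a single cell may still be expressed, so these are counts of cells with reads, not of cells with the receptor.

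**Figure D4:**
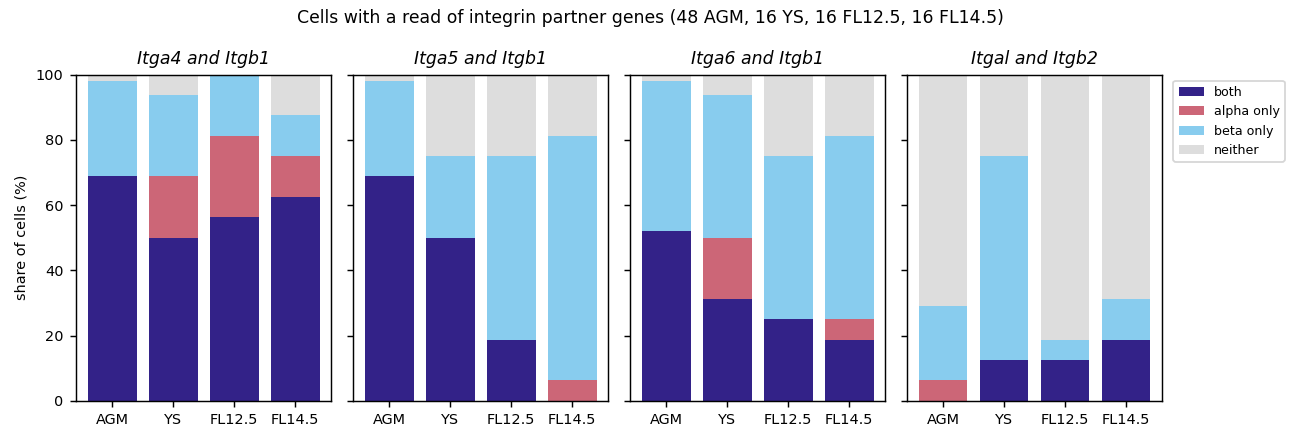
Share of cells (y axis, percent) with reads of both chains of an integrin, of the alpha chain alone, of the beta chain alone and of neither, for 48 AGM, 16 yolk sac (YS), 16 E12.5 liver (FL12.5) and 16 E14.5 liver (FL14.5) cells. The bars for Itga5 with Itgb1 go from 68.75% in AGM to 0% at E14.5, and those for Itgal with Itgb2 are 0% in AGM and 18.75% at E14.5.

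The members were chosen to follow the move from both E11.5 sites to the liver. From AGM to E12.5 liver the 9 log2 ratios ran from -2.48 for Itga5 to 1.34 for Fermt3, with a median of -0.28 against -0.20 over all genes. In the other comparisons the E12.5 or AGM cells are used again, so the ratios are not independent of these. E12.5 liver against yolk sac gave 1 member higher, Itga4, and 5 lower, Itga5, Itga6, Itgal, Itgb2 and Cd44. In that comparison 19.7% of all genes were more than 2-fold higher and 19.5% lower (39.2% in either direction), and the members' median was -1.06 against 0 over all genes. Of those 5, Itga6, Itgal and Cd44 lost the call or turned without a single cell, as given above, and Itga5 and Itgb2 were called with each cell left out. E14.5 over E12.5 liver gave 2 higher, Itgal and Itgb2, and 1 lower, Cxcr4, beside 18.7% and 18.2% of all genes (36.9% together). Yolk sac over AGM gave 2 higher, Itgal and Itgb2, and 0 lower, beside 8.61% and 21% of all genes (29.6% together). Fermt3 stood at 0.81 there and was 1.03 without cell 37 of the AGM, and Itgb1 stood at -0.75 and was -1.06 without cell 6 of the yolk sac.

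**Figure D5:**
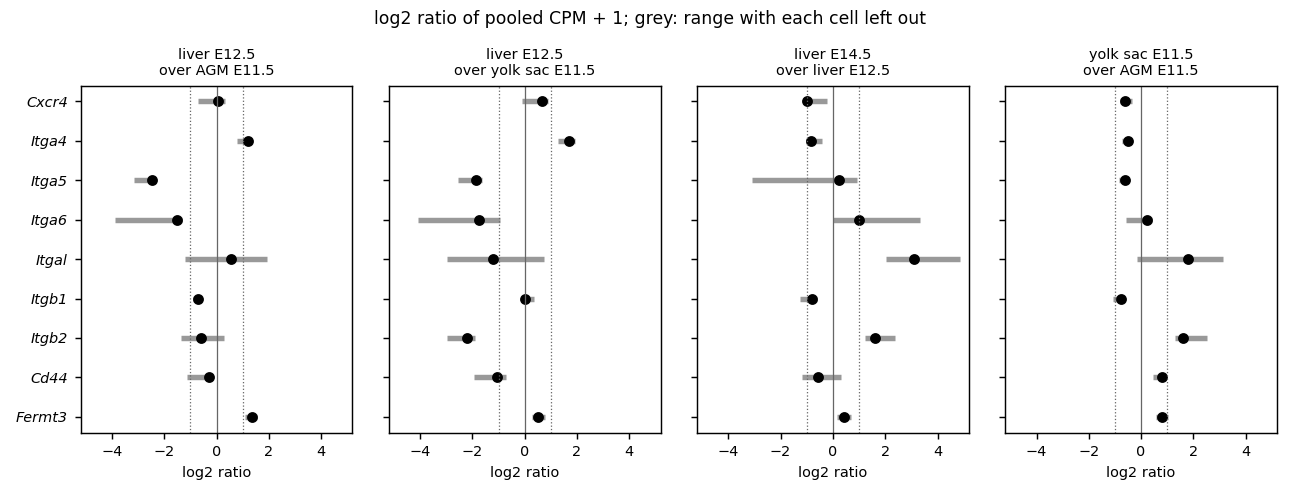
Log2 ratio of pooled CPM plus 1 (x axis) of the 9 genes in the 4 comparisons, as black points, with a grey bar for the range over all cells left out singly and dotted lines at 2-fold. Itga5 lies at -2.48 in E12.5 liver over AGM with its whole bar past the line, while the bar of Itgal crosses 0 in 3 of the panels.

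Beside these ratios, 7 of 10 endothelial markers were more than 2-fold lower in E12.5 liver than in AGM and 0 higher. Of 10 haematopoietic markers 2 were higher and 1 lower, and over all genes 15.6% were higher and 26% lower. Cdh5, among the 7 lower markers, codes for CD144, which only the E11.5 gate selected for. Ly6a, among the 2 higher markers, codes for Sca-1, which only the liver gates selected for. For these genes the ratio cannot be told apart from the gate. In single cells the endothelial sum ran from 113.8 to 9478 CPM in AGM, from 0.679 to 1334 in yolk sac, and up from 0 to 2298 at E12.5 and to 1242 at E14.5. Across the 96 cells, Itga5 and the endothelial sum, as log2 of CPM plus 1, had a correlation of 0.26, and Itgb1 and the sum one of 0.36. Within the 48 AGM cells the same correlations were 0.30 for Itga5 and 0.17 for Itgb1. With the number of genes read per cell the correlations were 0.47 for Itga6, 0.44 for Itgb1 and 0.41 for Itga5. Median gene numbers were 5522.5 in AGM, 5349.5 in yolk sac, 4036 in the E12.5 and 4839 in the E14.5 liver. The part of endothelial content and of gene number in the member ratios was not tested. Mesenchymal markers were also read in AGM, at 133.0 CPM in sum against 2.68 at E12.5, with 23 of 48 AGM cells at 0.

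Genes whose level over the 96 cells was most like that of a member were looked for among 7308 genes read in at least 25% of cells. Claudin gene Cldn5, a tight-junction gene of endothelium, was the nearest to Itga5, with a Pearson correlation of 0.64 over all cells and 0.51 after the group means were removed. Cd24a, a surface glycoprotein gene, was the nearest to Itgb1, at 0.55 and 0.59. For Itga4, Itga6, Itgb2, Cd44 and Fermt3, neither of the 2 nearest genes reached 0.5 on both measures, and Cxcr4 and Itgal were read in too few cells to be compared. Cells of a group count as 1 sample, and depth differed between cells, from 250235 to 1926882 reads, so the correlations are descriptions.

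Other integrin chains differed in their own way. Of 15 further subunits with enough reads, 3 were more than 2-fold higher and 8 lower in E12.5 liver than in AGM, with a median of -1.19, beside 15.6% and 26% of all genes and a median of -0.20. Itga2b, the platelet alpha-IIb chain, stood at 54.4 CPM in AGM, 68.5 in yolk sac, 0.577 in the E12.5 and 30.4 in the E14.5 liver, and its log2 ratio of E12.5 over AGM was -5.13. Its partner Itgb3 stood at 48.8, 24.1, 2.47 and 0 CPM. Of 7 megakaryocyte markers, Itga2b among them, 1 was higher and 4 lower in E12.5 liver than in AGM, beside the same 15.6% and 26%. Itgam, the alpha chain of the myeloid integrin Mac-1, was at 1.48 CPM in AGM and 8.61 at E12.5, a log2 ratio of 1.96 (1.26 to 2.17 over cells left out singly), in 5 of 16 liver cells. Its product is CD11b, which the E11.5 gate excluded and the liver gates did not name, so this ratio cannot be told apart from the gate. Despite that gate Itgam was read in 8 of 48 AGM cells and in 6 of 16 from yolk sac, where it stood at 3.86 CPM. Of the 15 subunits, 3 were higher and 3 lower at E12.5 than in yolk sac, beside 19.7% and 19.5% of all genes. From E12.5 to E14.5 the counts were 6 and 4 (18.7% and 18.2% of all genes), and in yolk sac over AGM 0 and 7 (8.61% and 21%).

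Of 22 genes of integrin activation and linkage to actin, 4 were higher and 9 lower in E12.5 liver than in AGM (median -0.67), and 1 was higher and 10 lower than in yolk sac (median -0.45). Over all genes the shares were 15.6% higher and 26% lower against AGM (median -0.20), and 19.7% and 19.5% against yolk sac. Filamin A (Flna), which competes with talin on integrin tails, stood at 152.9 CPM in AGM and 27.1 at E12.5, a log2 ratio of -2.45 (-3.45 to -2.31 over cells left out singly). Fermt2, the kindlin of non-blood cells, stood at 17.3 CPM in AGM, 7.58 in yolk sac, 2.62 in the E12.5 and 0.534 in the E14.5 liver, opposite in order to Fermt3. Rassf5, the gene of the Rap1 effector RAPL, stood at 7.37 CPM in AGM and 46.03 at E12.5, a log2 ratio of 2.49 (1.69 to 3.10 over cells left out singly), in 4 of 16 liver cells. Talin gene Tln1 stood at 146.7, 124.5, 53.2 and 72.7 CPM. Parvg, a parvin of blood cells, was 2.85 higher in yolk sac than in AGM on the log2 scale. From E12.5 to E14.5 the list had 3 higher and 4 lower, beside 18.7% and 18.2% of all genes. In yolk sac over AGM the counts were 2 and 3, beside 8.61% and 21%.

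Of 19 genes of CXCR4 signalling, 4 were higher and 4 lower in E12.5 liver than in AGM (median -0.44), close to the 41.7% of all genes past 2-fold in either direction. Rac2, a blood-cell GTPase downstream of the receptor, stood at 284.9 CPM in AGM, 969.2 in yolk sac, 957.5 in the E12.5 and 1161.7 in the E14.5 liver. Rhoh, another blood-cell GTPase, was higher in E12.5 liver than in AGM by 1.80 on the log2 scale. Grk6, a kinase that desensitises chemokine receptors, stood at 55.1 CPM in AGM, 7.35 at E12.5 and 45.03 at E14.5. Rgs2, which limits G protein signals, stood at 855.4 CPM in AGM and 140.9 at E12.5, a ratio of -2.59. Arrb2, a beta-arrestin, was lower at E12.5 than in yolk sac by -1.62 and higher again at E14.5 by 1.76. The list had 1 higher and 5 lower in E12.5 liver over yolk sac, beside 19.7% and 19.5% of all genes. In E14.5 over E12.5 the counts were 3 and 0 (18.7% and 18.2% of all genes), and in yolk sac over AGM 4 and 2 (8.61% and 21%).

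Transcripts listed as ligands and counter-receptors of the members were mostly lower in the sorted cells from outside the AGM. These reads come from the sorted cells alone and do not measure ligand in the tissue around them. Of 12 such genes with enough reads, 0 were more than 2-fold higher and 10 lower in E12.5 liver than in AGM. Their median was -3.05, beside 15.6%, 26% and -0.20 over all genes. Against yolk sac 0 were higher and 6 lower, beside 19.7% and 19.5% of all genes. The counts were 1 and 2 from E12.5 to E14.5 (18.7% and 18.2% of all genes) and 1 and 9 in yolk sac over AGM (8.61% and 21%). Fibronectin (Fn1), the ligand of VLA-5, stood at 359.5 CPM in AGM, 104.1 in yolk sac, 44.9 in the E12.5 and 28.5 in the E14.5 liver. The laminin chain gene Lamb1 had 1372 reads in AGM and 0 at E12.5. Icam1, a ligand of LFA-1, stood at 117.4 CPM in yolk sac and 42.99 at E12.5. Cxcl12 was read in 4 of 48 AGM cells and in 0 cells of the other groups. These ligands are also products of endothelium and mesenchyme, whose markers were higher in AGM as given above, and the part of such cells was not tested.

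Among 20 other homing and adhesion receptors, 2 were higher and 6 lower in E12.5 liver than in AGM (median -0.14), near the 15.6% and 26% of all genes and their median of -0.20. Selplg, the gene of the selectin ligand PSGL-1, stood at 59.5 CPM in AGM, 58.1 in yolk sac, 329.9 in the E12.5 and 272.3 in the E14.5 liver, and its log2 ratio of E12.5 over AGM was 2.45. The sphingosine phosphate receptor gene S1pr1 stood at 83.0 CPM in AGM and 16.6 at E12.5, and Pecam1, an endothelial adhesion gene, at 129.7 and 30.1 CPM. The list had 4 higher and 7 lower in E12.5 liver over yolk sac, beside 19.7% and 19.5% of all genes. In E14.5 over E12.5 the counts were 4 and 2 (18.7% and 18.2% of all genes), and in yolk sac over AGM 4 and 4 (8.61% and 21%). Jam3, a junctional adhesion gene, was higher at E14.5 than at E12.5 by 1.23.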

How the data were processed

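The deposited table holds whole-number counts of reads for each gene in the 96 cells, 1 column a cell. The submitters' processing notes name FastQC, Trimmomatic 0.36, STAR, HTSeq and mm10, and the annotation and any use of strand are not given in the sources used here. Per the labels' protocols, libraries had 12 PCR cycles and no molecular identifier is named, so counts are reads, and intervals cover counting error alone. All 96 columns were matched by name, 0 were left unmapped, and 0 of 4560 pairs of cells had identical counts. Of 19949 rows, 113 shared a symbol with an earlier row and were summed.

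Reads were summed per group and scaled to CPM, and log2 ratios were taken after 1 CPM was added, which understates differences of low genes. A fold of 2 was called. Intervals are exact 95% Poisson, Clopper-Pearson and conditional ones. Thinning to 690000 reads left out 5 AGM, 0 yolk sac, 2 E12.5 and 2 E14.5 cells. Exon lengths and positions came from GENCODE M21. List genes were named when they were among the 3 largest ratios past 2-fold of a list, with reads in no fewer than 25% of cells in the group where it was higher and at most 50% of its reads from 1 cell; Tln1 and Cxcl12 were added after their values were seen. The members and lists were chosen with earlier results of these data known. Doublets were not called, as wells were sorted to hold 1 cell. Python 3.11.15, pandas 2.3.3 and scipy 1.17.1 were used. The calculation was run on simulated counts in which 200 genes were raised or lowered 4-fold. Of these, 74% to 85.5% were called in the 4 comparisons. Their median log2 ratios were 1.71 to 1.80 when raised and -1.66 to -1.35 when lowered, smaller than simulated. The simulated spread between cells was a fixed setting and was not fitted to these cells. The alternatives were thinned reads, median-of-ratios scaling, the mean CPM over cells, 10 or 0.1 CPM added, no minimum on reads, leaving out cells that stood apart, and leaving out each cell.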

Additional observations from a re-analysis of the deposited data

How the results depend on the processing

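The number of members past 2-fold moved under the most settings for E14.5 over E12.5 liver. With the main setting 2 were higher there and 1 lower, beside 18.7% and 18.2% of all genes. There 3 were higher with the mean CPM over cells, with thinned reads, with 0.1 CPM added and without the globin-rich cells. Of all genes, 20.1%, 19.2%, 21.2% and 17.5% were higher with these settings. Without the globin-rich cells the 1 lower member was Itga5, at -3.09, in place of Cxcr4, at -0.99. Without the yolk sac cells lacking Cdh5 and Procr, E12.5 liver over yolk sac had 4 lower in place of 5, beside 20.8% of all genes. With 10 CPM added, E12.5 liver over yolk sac had 3 members lower in place of 5, yolk sac over AGM had 1 higher in place of 2, and E14.5 over E12.5 liver had 0 lower in place of 1. The last count was also 0 with the mean CPM over cells, with thinned reads and with median-of-ratios scaling, where Cxcr4, with 21 reads against 1, fell short of 2-fold. With 0.1 CPM added, E12.5 liver over yolk sac had 2 higher in place of 1, beside 23.4% of all genes. Yolk sac over AGM had 1 lower in place of 0, beside 31.1% of all genes. Shares over all genes were not taken with single cells left out. With single cells left out, E12.5 liver over AGM had 1 to 3 members higher and 2 to 4 lower, and over yolk sac 1 higher and 4 to 5 lower. E14.5 over E12.5 liver had 2 to 3 higher and 0 to 1 lower, and yolk sac over AGM 1 to 3 higher and 0 to 1 lower. A called direction turned for Itgal without cell 9 of the yolk sac, to 0.72 for E12.5 liver over yolk sac and to -0.17 for yolk sac over AGM, and over all cells left out these ratios ran from -2.98 to 0.72 and from -0.17 to 3.15. Itga5 in E12.5 liver over AGM ran from -3.15 to -2.35 over the cells left out. No paired analysis was possible because the labels name no animal, litter or batch for any cell, and numbers of cells in different groups mark nothing shared. Cxcr4 had the fewest reads of the members, 62, 7, 21 and 1 in the 4 groups, and the part of depth in this was not tested.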
